A study of Mus musculus with 12 samples.

Results

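The 10 genes described here are little studied in skeletal muscle and stood out in dystrophic muscle: Ppp1r1a, Dusp26, BC048679, 1700001O22Rik, 0610040J01Rik and Fabp3-ps1 were lower in both dystrophin mutants than in wild type, and Prune2, Ttc9, C1qtnf3 and Gm48395 were higher. They were picked by name from the 30239 genes of the deposited table for the size or evenness of that difference, so their differences from wild type are given as a description, without a test. Untreated mice gave up the tibialis anterior, a fast muscle of the shin, at 6 months of age, and its poly(A) RNA was sequenced. Of the 12 libraries, 4 were labelled WT, 4 mdx and 4 DMD-Null. The mdx strain carries a point mutation that stops translation of dystrophin, while the labels give neither the allele of DMD-Null nor the strain background of any group. What the design leaves to test in these genes is whether the mutants differ from each other.

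Duchenne muscular dystrophy follows from loss of dystrophin, which ties the cytoskeleton of a fibre to the matrix around it. Fibres that lack it break down and are replaced by new ones, and inflammatory cells and connective tissue enter the muscle. RNA of a whole muscle therefore mixes fibres of different age with other cells, and in such bulk samples fewer cells of a type and less RNA per cell cannot be told apart.

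The libraries held 60693078 to 68054627 counts and 21533 to 23152 genes with reads. Dmd, the dystrophin gene, had 713 to 1254 counts across mdx libraries and 71 to 164 across DMD-Null libraries. Of the WT libraries, WT 2 and WT 4 had 3597 and 2446 counts, but WT 1 and WT 3 had 542 and 412, below every mdx library. Dmd in these 2 libraries thus goes against their label, and WT 1 and WT 3 here mean the libraries labelled so. The fibre marker list, found in full in the table at 12 of 12 genes, summed to 100175 to 235679 CPM (counts scaled to library size, in this paragraph to library totals alone) in WT, to 101847 to 126124 CPM with mdx and to 101915 to 142230 CPM with DMD-Null, with WT 1 and WT 3 the highest of the 12 and WT 2 the lowest. WT 1 and WT 3 stood apart: their scaling factors were 0.694 and 0.698 against 0.952 to 1.18 elsewhere, and on the leading principal component, with 64.0% of the variance, they lay at -98.4 and -103 against -33.4 to 49.5. They were also the lowest of the 12 in each of the 4 genes of the Y chromosome read: Ddx3y had 385 and 447 counts in them and 1090 to 3855 elsewhere. The 5 sex markers, these and Xist, summed to 24.3 and 23.0 CPM in WT 1 and WT 3, to 113 and 79.1 CPM in WT 2 and WT 4, to 115 to 137 CPM with mdx and to 61.0 to 139 CPM with DMD-Null. The part of these traits in the values below was not tested. Fold changes against WT are therefore given with and without WT 1 and WT 3. Other markers also moved with genotype. The 15 liver markers, none at 0 in any group, summed to 765 to 850 CPM in WT libraries, to 122 to 225 CPM with mdx and to 55.7 to 280 CPM with DMD-Null. The 10 lung markers summed to 14.4 to 18.0 CPM in mdx, against at most 1.16 in WT, where Sftpa1, Sftpd, Scgb3a2 and Cldn18 were at 0, and at most 1.44 in DMD-Null, where Sftpb and Sftpc were at 0 too. The part of these tissues in the values below was not tested.

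The sequences shown first are those of the least described genes and of the near-identical pseudogene, since a reader will not know them by name. Promoters come from RefSeq (GRCm38.p6), run from 250 bases before to 50 after the start and are written 5′ to 3′ on the strand of the gene. RefSeq gave 7 such entries for 6 of the 10 genes. The BC048679 window is chr7:81498281-81498580 (minus strand), that of 1700001O22Rik chr2:30801688-30801987 (minus), that of Prune2 chr19:16955868-16956167 (plus) and that of C1qtnf3 chr15:10952082-10952381 (plus). Capitals mark E-boxes (CANNTG), the TATA box (TATAAA) of C1qtnf3 and the SRF box of Prune2, which also holds the E-box form CAGCTG. The window of 1700001O22Rik is the first of 2 entries and lies within the gene, with 4 E-boxes. Its other entry, chr2:30803615-30803914 (minus), spans the annotated start at base 30803661 and holds 2 E-boxes.
BC048679: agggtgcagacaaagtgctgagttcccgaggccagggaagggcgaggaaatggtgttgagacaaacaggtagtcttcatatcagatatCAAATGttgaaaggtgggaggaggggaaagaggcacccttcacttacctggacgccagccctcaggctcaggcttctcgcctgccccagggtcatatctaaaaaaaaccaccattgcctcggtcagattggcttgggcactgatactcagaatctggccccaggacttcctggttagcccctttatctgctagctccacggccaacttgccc
1700001O22Rik: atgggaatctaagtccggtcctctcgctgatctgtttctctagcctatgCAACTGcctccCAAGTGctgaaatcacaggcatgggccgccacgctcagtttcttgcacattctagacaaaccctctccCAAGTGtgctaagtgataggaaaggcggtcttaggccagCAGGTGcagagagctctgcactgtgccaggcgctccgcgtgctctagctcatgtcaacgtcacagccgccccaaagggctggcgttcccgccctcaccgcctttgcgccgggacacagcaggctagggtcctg
Prune2: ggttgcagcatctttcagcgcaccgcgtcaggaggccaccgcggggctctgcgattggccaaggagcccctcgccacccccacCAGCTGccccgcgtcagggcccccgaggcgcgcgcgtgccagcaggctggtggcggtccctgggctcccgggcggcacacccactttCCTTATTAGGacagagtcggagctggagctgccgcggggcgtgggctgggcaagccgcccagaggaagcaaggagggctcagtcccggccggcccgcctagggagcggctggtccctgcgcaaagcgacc
C1qtnf3: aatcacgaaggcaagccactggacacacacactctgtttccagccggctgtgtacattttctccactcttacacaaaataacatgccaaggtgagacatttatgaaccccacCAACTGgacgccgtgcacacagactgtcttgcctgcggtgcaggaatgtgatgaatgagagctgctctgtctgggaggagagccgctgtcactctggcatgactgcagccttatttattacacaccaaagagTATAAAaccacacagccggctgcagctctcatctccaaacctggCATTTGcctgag

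Both strands were searched. An E-box was in 6 of the 7 entries, where 72.3% of all 32851 promoters of the same length hold at least 1. The myogenic form CAGCTG, which is itself an E-box, was in that of Prune2 alone, against 16.3% of all promoters. The SRF box was also found only in Prune2 (1.63% of all), and the TATA box only in C1qtnf3 (13.6%). The GC box GGGCGG was in 4 entries, against 35.7% of all. None of the 7 held the MEF2 box (3.19% of all), the AP-1 site TGANTCA (7.81%), the ERR site AAGGTCA (4.72%) or the MEF3 site TCAGGTT (4.07%). A match describes letters in a window and is not a site shown to be bound. Promoter GC content ran from 50.7% in C1qtnf3 to 72.7% in Prune2, with a median of 52.7% over all promoters.

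Gm48395 is a long non-coding RNA gene (ENSMUSG00000114439, chr14:20215502-20221425, plus strand) whose transcript of 486 bases matched no other annotated transcript. Its opening 300 bases in the GENCODE annotation of GRCm38 are shown because no protein stands for the gene.
Gm48395: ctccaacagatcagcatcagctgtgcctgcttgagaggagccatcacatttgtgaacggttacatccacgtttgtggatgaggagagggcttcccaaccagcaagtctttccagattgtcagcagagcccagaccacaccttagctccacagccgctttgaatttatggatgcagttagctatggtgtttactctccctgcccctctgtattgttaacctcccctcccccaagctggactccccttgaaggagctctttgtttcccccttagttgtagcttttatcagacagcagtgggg

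Fabp3-ps1 (ENSMUSG00000056366, chr10:86731987-86732388, minus strand) is a processed pseudogene, a copy of a spliced mRNA put back into the genome. Its 402 bases matched bases 184 to 585 of the Fabp3 transcript with 3 differences (99.25% identity). The stretch from base 215 to 334 of the pseudogene, and from base 398 to 517 of Fabp3, holds 2 of them, in capitals.
Fabp3-ps1: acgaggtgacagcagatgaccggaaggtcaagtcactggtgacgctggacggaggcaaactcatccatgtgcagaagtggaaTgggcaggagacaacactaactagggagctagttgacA
Fabp3: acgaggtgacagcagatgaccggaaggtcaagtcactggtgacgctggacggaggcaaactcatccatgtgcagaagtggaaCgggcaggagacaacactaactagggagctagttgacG

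All 10 were among the 11376 genes tested, which had at least 1 FPKM (fragments per kilobase of gene, scaled to library size) in at least 4 libraries. BC048679, 1700001O22Rik and 0610040J01Rik reached that level only in WT libraries, and Prune2, C1qtnf3 and Gm48395 only in mutant libraries. Ttc9 reached it in 2 WT libraries and every mutant library, and Ppp1r1a, Dusp26 and Fabp3-ps1 in all 12. A gene that entered through its high group alone had to differ. Against WT, 15.0% of tested genes passed edgeR's quasi-likelihood test at an adjusted p under 0.05 as higher in mdx and 20.1% as lower, and 12.9% and 15.6% in DMD-Null. The groups did not overlap, with mdx higher, in 16.0% of genes and, with mdx lower, in 14.7%. For DMD-Null these shares were 11.6% and 10.1%. All 10 genes had no overlap with WT in either mutant, which the choice of the genes sets. CPM from here on are scaled by TMM, a method that evens out library composition, and log2 fold changes come from edgeR.

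**Figure D1:**
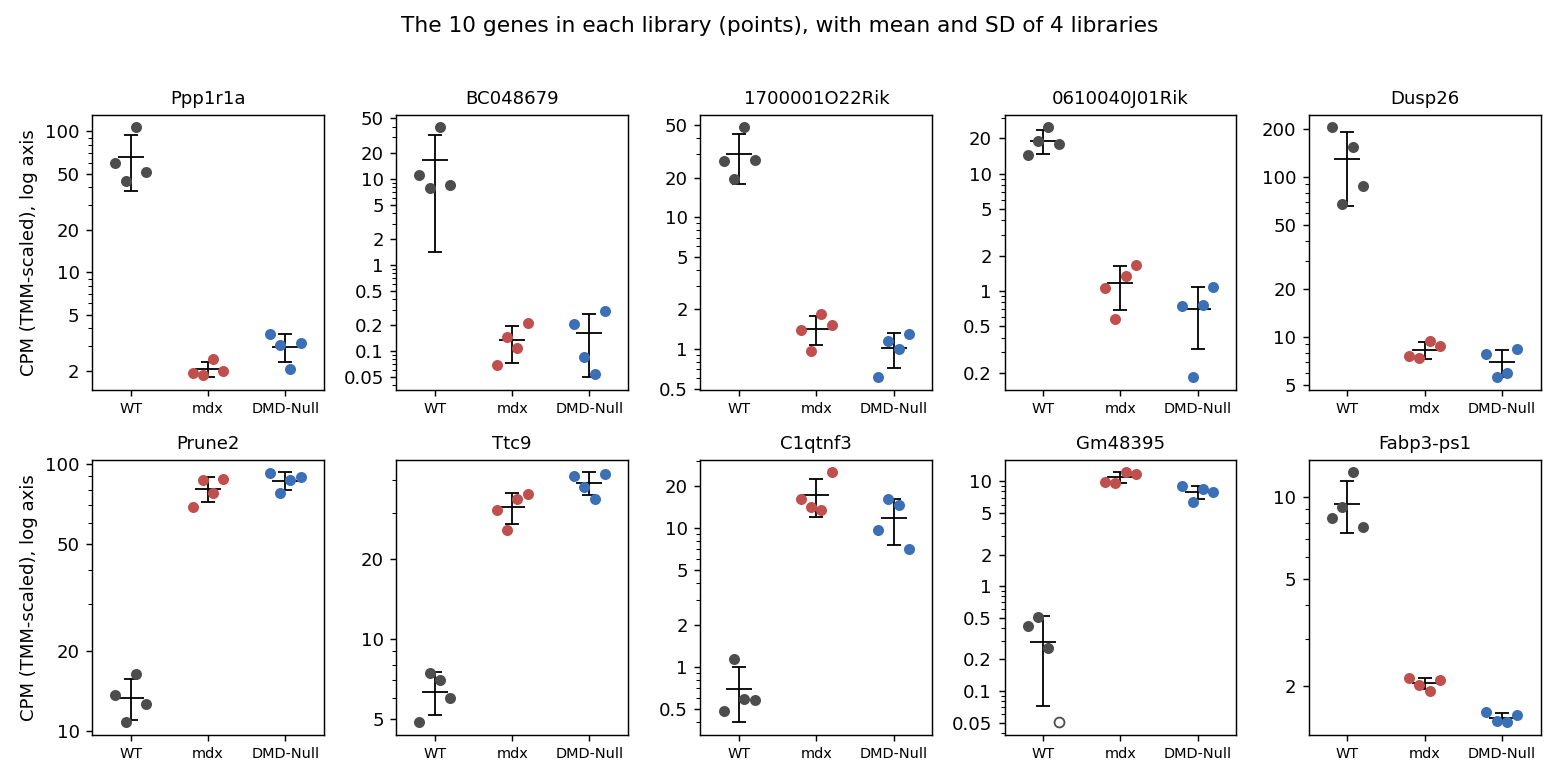
Each panel shows 1 gene in CPM scaled by TMM on a log axis, with a point for each library of WT, mdx and DMD-Null and black bars for the mean and SD of 4 libraries. The open circle is WT 4 of Gm48395, which had 0 counts and is drawn at the level of 3 counts (0.0502 CPM). In every panel both mutants lie wholly on one side of WT.

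Ppp1r1a and Dusp26 act on protein phosphorylation. Ppp1r1a (ENSMUSG00000022490, chr15:103530279-103538003) encodes inhibitor-1, which blocks protein phosphatase 1 (PP1) once it has been phosphorylated by protein kinase A. It stood at 59.9, 44.3, 107 and 51.9 CPM in WT 1 to 4. In mdx 1 to 4 it stood at 1.91, 1.87, 2.42 and 1.99 CPM, and in DMD-Null 1 to 4 at 3.62, 3.05, 2.05 and 3.14. The lowest WT library thus exceeded the highest mdx library 18.3 times and the highest DMD-Null library 12.2 times, and among the WT libraries WT 3 was the high one. Group means were 65.8 ± 28.2, 2.05 ± 0.254 and 2.96 ± 0.660 CPM (SD, n = 4). The log2 fold change was -5.00 (SE 0.31) in mdx and -4.47 (SE 0.30) in DMD-Null, and -4.58 and -4.05 without WT 1 and WT 3. Among genes lower than WT it ranked 3 in mdx and 9 in DMD-Null.

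Dusp26 (ENSMUSG00000039661, chr8:31089471-31097047) encodes a dual-specificity phosphatase, an enzyme that removes phosphate from tyrosine as well as from serine and threonine and that acts on MAP kinases in human cells. WT 1 to 4 had 204, 68.0, 155 and 87.9 CPM. The mdx libraries had 7.66, 7.39, 9.50 and 8.78 CPM and the DMD-Null libraries 7.81, 5.65, 5.99 and 8.40. WT 1 and WT 3 were the high libraries, with a mean 2.31 times that of WT 2 and WT 4, yet even WT 2 was 7.16 times the highest mdx library. The log2 fold change was -3.95 (SE 0.33) in mdx and -4.21 (SE 0.33) in DMD-Null. Without WT 1 and WT 3 these became -3.26 and -3.52. Its best match among other genes was Dusp13, with 71.7% identity over 198 bases.

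BC048679, 1700001O22Rik and 0610040J01Rik are annotated as protein-coding genes and named after cDNA clones. No role is stated for them here, and no other annotated transcript matched any of the 3. BC048679 (ENSMUSG00000061877, chr7:81494275-81498281) had 11.0, 7.76, 39.3 and 8.36 CPM in WT 1 to 4. In the mutants it rested on few reads, with 5 to 15 counts (0.0683 to 0.210 CPM) per mdx library and 4 to 19 counts (0.0546 to 0.291 CPM) per DMD-Null library. WT 3 was far above the other WT libraries and the mutants overlapped each other. The lowest WT library was 36.9 times the highest mdx library and 26.6 times the highest DMD-Null library. Its log2 fold changes of -6.94 (SE 0.73) and -6.70 (SE 0.72) ranked 2 in mdx and 1 in DMD-Null among genes lower than WT, and were -5.93 and -5.69 without WT 1 and WT 3.

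1700001O22Rik (ENSMUSG00000044320, chr2:30794769-30803661) had 26.7, 19.4, 48.2 and 27.1 CPM in WT 1 to 4. The mdx libraries had 1.39, 0.965, 1.83 and 1.51 CPM and the DMD-Null libraries 0.610, 1.16, 0.996 and 1.30. WT 3 was again the highest library, and the lowest WT library was 10.6 times the highest mdx library. The log2 fold change was -4.41 (SE 0.35) in mdx and -4.90 (SE 0.35) in DMD-Null, and -4.06 and -4.55 without WT 1 and WT 3.

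0610040J01Rik (ENSMUSG00000060512, chr5:63812363-63899625) varied least among WT libraries of these 3 genes, at 14.4, 18.8, 24.8 and 18.0 CPM in WT 1 to 4. It had 1.05, 0.570, 1.34 and 1.67 CPM in mdx 1 to 4, while DMD-Null 1 to 4 had 0.744, 0.184, 0.764 and 1.09. DMD-Null 2 was the lowest of all libraries, with 13 counts. The log2 fold changes were -4.04 (SE 0.46) and -4.77 (SE 0.48), and -4.02 and -4.76 without WT 1 and WT 3, so that these libraries hardly moved them.

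Fabp3-ps1 had 8.34, 9.22, 12.3 and 7.75 CPM in WT 1 to 4. It had 2.14, 2.02, 1.93 and 2.12 CPM in mdx 1 to 4, while DMD-Null 1 to 4 had 1.61, 1.50, 1.47 and 1.56. No group overlapped another, with WT high, mdx between and DMD-Null low. Log2 fold changes were -2.19 (SE 0.17) in mdx and -2.61 (SE 0.18) in DMD-Null, and -2.07 and -2.49 without WT 1 and WT 3. Fabp3, its parent, encodes the fatty acid binding protein of heart and muscle, which carries fatty acids inside the fibre. Fabp3 stood at 424 to 703 CPM in WT libraries, at 108 to 125 CPM with mdx and at 80.0 to 113 CPM with DMD-Null. Its log2 fold changes were -2.14 (SE 0.19, edgeR adjusted p = 2.82e-05) and -2.42 (SE 0.19, edgeR adjusted p = 1.39e-05), or -1.98 and -2.26 without WT 1 and WT 3. Fabp3-ps1 was picked for its fall and its count followed that of Fabp3, so these p-values are not independent of the choice.

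In every library the Fabp3-ps1 count was between 1.41% and 1.89% of the Fabp3 count. The longest run shared without a difference was 256 bases, and 157 of the 303 windows of 100 bases in the pseudogene were identical to Fabp3. How reads that match both were assigned was not stated in the sources at hand, so the value of Fabp3-ps1 is uncertain and may hold reads of Fabp3. Fabp3 was also the gene whose pattern over the 12 libraries was most like it, with a root-mean-square difference of 0.133 on the log2 scale after each gene was centred on its own mean. The pseudogene also lies within Ttc41, which had 51 to 177 counts per library.

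**Figure D2:**
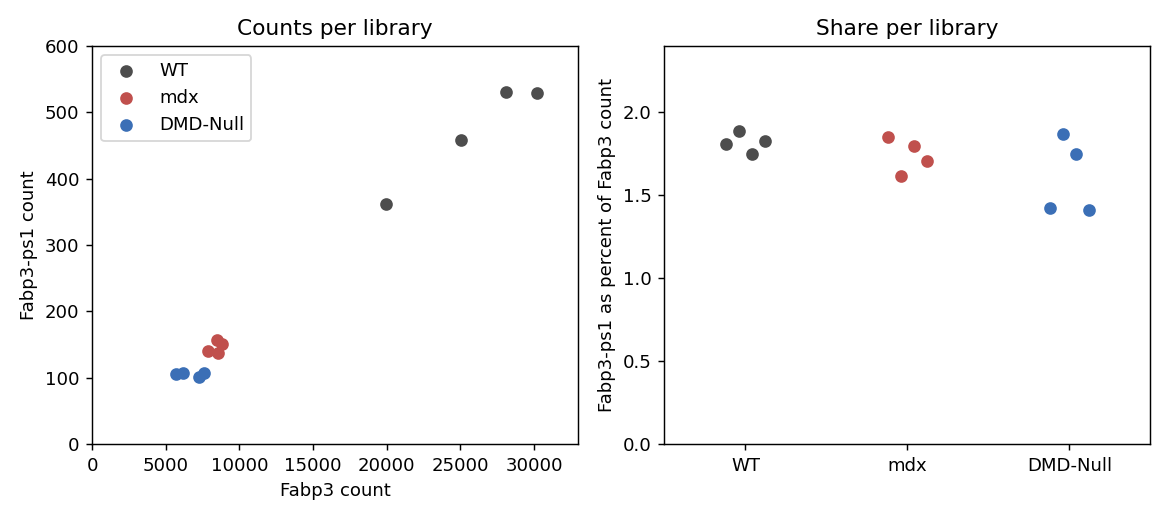
The left panel plots the count of Fabp3-ps1 against that of Fabp3 in each of the 12 libraries, and the right panel the former as a percent of the latter by group. The share lies between 1.41% and 1.89% in all groups while the counts differ several times between WT and the mutants.

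Of the higher genes, Prune2 (ENSMUSG00000039126, chr19:16956118-17223932) encodes a large protein with a lipid-binding BCH domain, related to BNIP2 and to caytaxin, the product of Atcay. It stood at 13.7, 10.8, 16.4 and 12.6 CPM in WT 1 to 4. It stood at 69.2, 87.0, 78.0 and 88.1 CPM in mdx 1 to 4, while DMD-Null 1 to 4 stood at 92.3, 77.5, 86.9 and 89.1. The mutants overlapped each other, and each library of theirs was at least 4.23 times the highest WT library. Log2 fold changes were 2.59 (SE 0.15) in mdx and 2.69 (SE 0.15) in DMD-Null, and 2.75 and 2.85 without WT 1 and WT 3. Gm27970 and Gm27796, which lie within Prune2, had 6 counts and 1 count in all libraries together.

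Ttc9 (ENSMUSG00000042734, chr12:81631249-81667557) encodes a protein with tetratricopeptide repeats, a fold through which proteins bind each other. WT 1 to 4 had 4.86, 7.46, 7.05 and 6.01 CPM. The mdx libraries had 30.7, 25.9, 34.0 and 35.5 CPM and the DMD-Null libraries 41.4, 37.6, 33.8 and 42.1. Of the 4 DMD-Null libraries 3 lay above every mdx library, and DMD-Null 3 lay among them. Log2 fold changes were 2.31 (SE 0.17) in mdx and 2.61 (SE 0.17) in DMD-Null, and 2.20 and 2.49 without WT 1 and WT 3.

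C1qtnf3 (ENSMUSG00000058914, chr15:10952332-10980150) encodes CTRP3, a secreted protein with a globular C1q domain that is also made by fat and cartilage. It had 0.484, 1.13, 0.582 and 0.575 CPM in WT 1 to 4. It had 16.2, 14.1, 13.4 and 25.0 CPM in mdx 1 to 4, while DMD-Null 1 to 4 had 9.57, 16.0, 14.6 and 6.99. WT 2 was the high WT library and mdx 4 the high mdx library, while DMD-Null spread below and into the range of mdx. Log2 fold changes were 4.62 (SE 0.38) in mdx and 4.07 (SE 0.37) in DMD-Null, which ranked 15 and 17 among genes higher than WT, and 4.30 and 3.76 without WT 1 and WT 3.

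Gm48395 had 0.415, 0.504, 0.256 and 0 CPM in WT 1 to 4, or 0 to 29 counts, where WT 4 had no read and 3 counts would be 0.0502 CPM. It had 9.93, 9.67, 12.1 and 11.8 CPM in mdx 1 to 4, while DMD-Null 1 to 4 had 8.96, 6.31, 8.36 and 7.96. The 3 groups did not overlap, with WT low, DMD-Null between and mdx high. Log2 fold changes were 5.22 (SE 0.60) in mdx and 4.76 (SE 0.59) in DMD-Null, which ranked 10 and 11, and 5.41 and 4.95 without WT 1 and WT 3.

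Markers of other cells moved with these genes. Their sums are given in CPM scaled to library totals alone. The 10 markers of fibro-adipogenic progenitors, the connective tissue cells of muscle, summed to 1060 to 1769 CPM in WT libraries, to 4279 to 4847 CPM with mdx and to 3550 to 4961 CPM with DMD-Null, with none at 0. The 10 macrophage markers summed to 114 to 182, 779 to 1046 and 472 to 946 CPM, and the 10 markers of regenerating fibres to 259 to 794, 1043 to 1424 and 879 to 1271. The 10 markers of slow and oxidative fibres summed to 1008 to 3916 CPM in WT libraries, to 550 to 732 CPM with mdx and to 516 to 1160 CPM with DMD-Null. Scaled by TMM, the WT sums stayed below those of every mutant library for the progenitors, at 1114 to 2095 CPM against at least 3297, and for the macrophages, at 120 to 196 CPM against at least 438. The regenerating fibre sums then overlapped, at 272 to 1144 CPM in WT libraries, with WT 1 and WT 3 the high ones, 922 to 1306 CPM with mdx and 810 to 1229 CPM with DMD-Null. The slow fibre sums under TMM were 1059 to 5638 CPM in WT libraries, again highest in WT 1 and WT 3, 486 to 672 CPM with mdx and 436 to 1122 CPM with DMD-Null, so that WT and DMD-Null overlapped on both scales. The part of these cells in the values of the 10 genes was not tested. On library totals alone, kidney markers (7 of 10 in the table) summed to at most 9.47 CPM in any library, testis markers (4 of 10) to at most 0.332, and the 10 brain and nerve markers to 185 to 249 CPM in WT libraries, 185 to 221 with mdx and 167 to 219 with DMD-Null. Under TMM the brain and nerve sums were 197 to 358 CPM in WT libraries, above the 164 to 196 CPM with mdx and the 145 to 196 CPM with DMD-Null.

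Levels can be compared between genes per length, in FPKM. In WT, Dusp26 at 37.7 ± 12.4 and Ppp1r1a at 34.8 ± 10.3 FPKM were the highest of the 10 and differed by less than their SD. BC048679 at 17.2 ± 13.4 and Fabp3-ps1 at 16.6 ± 3.01 FPKM followed, again within their spread, then 1700001O22Rik at 7.54 ± 2.26 and 0610040J01Rik at 5.67 ± 1.38 (SD, n = 4), a pair also within its spread. The other 4 were under 1 FPKM on average. In mdx the order was led by Gm48395 at 22.2 ± 3.05 FPKM, ahead of C1qtnf3 at 6.66 ± 2.15 and Ttc9 at 6.55 ± 1.02, which did not differ beyond their spread. DMD-Null was led by Gm48395 at 16.0 ± 1.95 and Ttc9 at 8.01 ± 0.513 FPKM, followed by C1qtnf3 at 4.64 ± 1.88 and Prune2 at 4.21 ± 0.189, which lay within their spread. BC048679 had the lowest mean in mdx, at 0.197 ± 0.0902 FPKM, before 0610040J01Rik at 0.474 ± 0.198 and 1700001O22Rik at 0.500 ± 0.139. In DMD-Null the same 3 genes were at 0.233 ± 0.152, 0.279 ± 0.143 and 0.354 ± 0.106 FPKM, and BC048679 did not differ from the other 2 beyond the spread.

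The spread among WT libraries also differed from gene to gene. The mean of WT 1 and WT 3 was 3.12 times that of WT 2 and WT 4 for BC048679, 1.73 times for Ppp1r1a and 1.61 times for 1700001O22Rik, against 1.06 times for 0610040J01Rik, 0.884 times for Ttc9 and 0.625 times for C1qtnf3. The GC content of the transcripts ran from 44.0% in C1qtnf3 through 47.3% in Prune2 and 54.1% in BC048679 to 58.2% in Dusp26 and 61.7% in 1700001O22Rik. The part of GC content in these values was not tested.

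The difference between the mutants was not itself a ground for choosing the genes and was tested. Genes chosen for large or even changes in both mutants tend to be alike in them, however, so this test is not independent of the choice. None of the 10 passed edgeR's quasi-likelihood test of DMD-Null against mdx, with an adjusted p of 1.0 for each, and 0.0176% of all tested genes did, namely Sftpc and Scgb1a1, which are lung genes and were lower in DMD-Null. Over all genes 120 had an unadjusted p under 0.05, among them Fabp3-ps1 alone of the 10. The spread is estimated over all 12 libraries, so WT 1 and WT 3 enter this test too. With these left out, edgeR's unadjusted p was 0.0112 for Ppp1r1a, 0.0115 for Fabp3-ps1 and 0.0304 for Ttc9. It stayed above 0.05 for the rest of the 10, and none passed after adjustment. The share of all tested genes under 0.05 in that fit was not counted, so these values stand without a background. DESeq2 called 6 genes, none of them among the 10. For single genes an exact two-sided permutation test over the 4 and 4 libraries has 70 arrangements and cannot go below p = 0.0286. That smallest value was reached by Fabp3-ps1 and Gm48395, both lower in all 4 DMD-Null libraries than in all 4 mdx libraries. With no gene of the 10 higher throughout, this is 2 of 10, beside 1.02% of all tested genes that did not overlap with DMD-Null lower and 1.22% with DMD-Null higher. Adjusted over all genes neither passed.

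Fabp3-ps1 stood at 1.54 ± 0.0614 CPM in DMD-Null against 2.05 ± 0.0977 in mdx (SD, n = 4), a log2 difference of -0.42 (SE 0.17). Its parent Fabp3 differed by -0.28 (SE 0.18), with overlap between the groups (exact permutation p = 0.114). Gm48395 stood at 7.90 ± 1.13 CPM in DMD-Null against 10.9 ± 1.26 in mdx, a log2 difference of -0.46 (SE 0.47). Its highest DMD-Null library and its lowest mdx library were 1.08 times apart. Ppp1r1a was higher in 3 of the 4 DMD-Null libraries than in any mdx library, with a log2 difference of 0.53 (SE 0.27, exact permutation p = 0.0571). Ttc9 differed by 0.30 (SE 0.16, exact permutation p = 0.0857).

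C1qtnf3 differed by -0.54 (SE 0.32, exact permutation p = 0.229) and 0610040J01Rik by -0.74 (SE 0.44, exact permutation p = 0.257). The difference of 1700001O22Rik was -0.49 (SE 0.32, exact permutation p = 0.171), that of Dusp26 -0.26 (SE 0.30, exact permutation p = 0.2) and that of Prune2 0.10 (SE 0.14, exact permutation p = 0.314). BC048679, read from few counts in both mutants, had a difference of 0.24 (SE 0.74, exact permutation p = 0.886) that became -0.22 without DMD-Null 4. A p that misses the threshold does not show that the mutants are alike in these genes. The SE leave room for differences larger than the values in the plot of DMD-Null against mdx, most of all for BC048679 (SE 0.74).

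**Figure D3:**
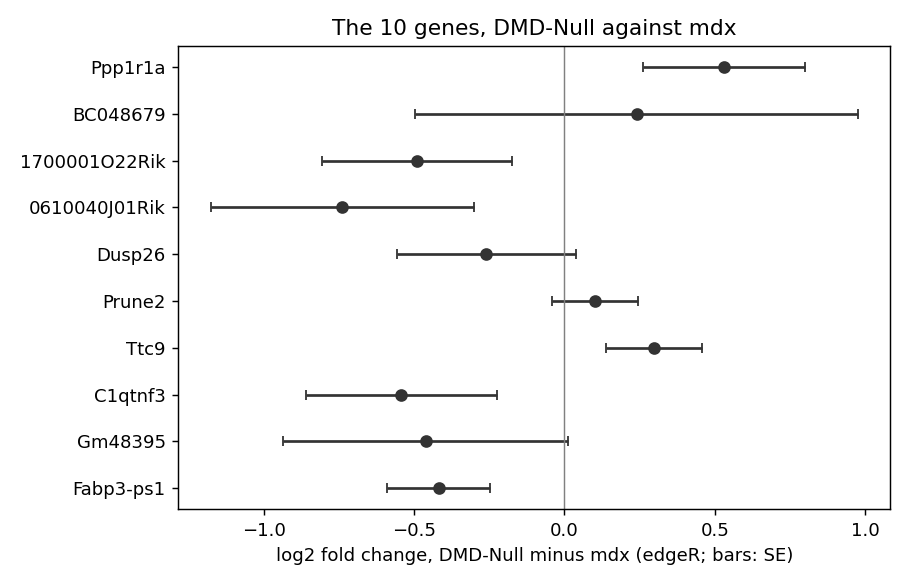
Log2 fold change of DMD-Null minus mdx for the 10 genes, with bars of 1 SE derived from edgeR's test. The values run from -0.74 for 0610040J01Rik to 0.53 for Ppp1r1a, and none passed the test after adjustment over all genes.

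Relatives of the 10 genes were read as lists of gene families, written with earlier results of these data known. Over all tested genes 15.0% rose and 20.1% fell in mdx, and 12.9% rose and 15.6% fell in DMD-Null. Of 11376 genes, 1408 rose and 1241 fell in mdx without WT 1 and WT 3, and 1367 rose and 1119 fell in DMD-Null. These shares stand beside every list count below. Protein phosphatase 1 takes its substrates from regulatory subunits, and of 27 tested genes of its subunits and regulators 3 rose and 9 fell in mdx, and 2 rose and 5 fell in DMD-Null. The median log2 fold changes of -0.31 and -0.27, beside 0.00 and 0.01 over all genes, turned to 0.17 and 0.24 when scaled to library totals alone, where 6 and 5 rose and none fell, and to 0.21 and 0.23 with limma on log2(FPKM + 1). Over all genes library totals alone raised the median to 0.42 and 0.44. With WT 1 and WT 3 left out, 2 rose and 2 fell in mdx and 2 rose and 4 fell in DMD-Null, with medians of -0.11 and -0.04. Ppp1r15a, which brings the phosphatase to a translation factor under stress, fell by 0.92 (SE 0.24, edgeR adjusted p = 0.0142) in mdx and by 0.96 (SE 0.24, edgeR adjusted p = 0.0137) in DMD-Null. Ppp1r27 fell by 0.95 and 1.08. Neither gene passed under library totals alone. The values were -0.50 and -0.53 for Ppp1r15a and -0.98 and -1.11 for Ppp1r27 without WT 1 and WT 3, where the falls of both in mdx ended. The falls in mdx of Ppp1r37 (-0.99), of Ppp1r14a (-1.17), an inhibitor of myosin phosphatase in smooth muscle, and of Ppp1r13l (-1.11) ended under these same settings, as did those of Ppp1r37 (-0.86) and Ppp1r14a (-1.14) in DMD-Null. These values became -0.29, -0.65 and -0.09 in mdx and -0.17 and -0.63 in DMD-Null without WT 1 and WT 3. The most abundant gene of the list, the catalytic subunit gene Ppp1ca, did not pass in mdx (-0.35, SE 0.23, edgeR adjusted p = 0.227) or DMD-Null (-0.27, SE 0.23, edgeR adjusted p = 0.369), and its sign turned to 0.20 and 0.28 without WT 1 and WT 3.

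Of 24 tested dual-specificity phosphatases other than Dusp26, 7 rose and 3 fell in mdx, and 6 rose and 2 fell in DMD-Null, with medians of 0.16 in both. Without WT 1 and WT 3 these counts were 4 and 4 in each, with medians of 0.03 in both. Dusp14, a phosphatase that acts on MAP kinases and on T cell signalling, rose from 4.24 ± 1.15 CPM in WT to 18.5 ± 2.33 CPM with mdx and 19.2 ± 1.96 CPM with DMD-Null (SD, n = 4), by 2.13 (edgeR adjusted p = 3.68e-05) and 2.17 (edgeR adjusted p = 3.43e-05) on the log2 scale. Dusp5, a nuclear phosphatase of ERK, rose by 1.85 and 2.06. Dusp8, which acts on stress kinases, fell from 54.6 ± 12.7 CPM to 17.7 ± 1.43 and 15.7 ± 2.31, with log2 fold changes of -1.62 (edgeR adjusted p = 9.60e-05) and -1.80 (edgeR adjusted p = 5.97e-05). Dusp13, the best match of Dusp26 and itself a muscle gene, fell by 1.23 and 1.09. Without WT 1 and WT 3 the values in mdx and DMD-Null were 1.91 and 1.95 for Dusp14, 1.53 and 1.74 for Dusp5, -1.35 and -1.53 for Dusp8, and -0.75 and -0.60 for Dusp13. These 4 genes passed in both mutants under every setting that tested them, but Dusp5 and Dusp8 were not tested under the filter on mean FPKM of 5 or more.

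The C1q and TNF family of C1qtnf3 had 14 tested genes, of which 6 rose and 2 fell in each mutant, and 8 rose and none fell without WT 1 and WT 3. Its medians were 0.65 and 0.62, and 1.14 and 1.17 without these libraries. Col8a1, a collagen of the matrix with the same globular domain, rose from 3.46 ± 0.849 CPM in WT to 24.3 ± 4.09 CPM with mdx and 27.3 ± 8.47 CPM with DMD-Null (SD, n = 4), by 2.81 (SE 0.27, edgeR adjusted p = 4.48e-05) and 2.97 (SE 0.27, edgeR adjusted p = 3.58e-05), or 2.63 and 2.79 without WT 1 and WT 3. C1qc and C1qb, chains of the complement protein C1q that macrophages make, rose by 2.03 and 1.92 in mdx and by 1.83 and 1.72 in DMD-Null. These became 2.22 and 2.31, and 2.02 and 2.10, without WT 1 and WT 3. The macrophage marker sums given above were higher in the same groups, and their part in these rises was not tested.

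Smaller families gave fewer calls. Of 5 relatives of Prune2, 3 rose and 1 fell in mdx, and 1 rose and 1 fell in DMD-Null. The counts were 2 and 0, and 2 and 1, without WT 1 and WT 3. Prune1, a phosphodiesterase, rose by 0.44 in mdx (SE 0.11, edgeR adjusted p = 0.0116), but not in DMD-Null, where it differed by 0.30 (edgeR adjusted p = 0.057). It passed in both without WT 1 and WT 3, by 0.50 in mdx (edgeR adjusted p = 0.00356) and by 0.36 in DMD-Null (edgeR adjusted p = 0.0202). Atcay fell by 1.24 in DMD-Null (edgeR adjusted p = 0.00607), or by 1.18 without WT 1 and WT 3. Its fall of -0.86 in mdx, the rises of Arhgap1 (0.54 in mdx and 0.53 in DMD-Null) and that of Gdap2 (0.77 in mdx) ended under the replicate block, among other settings. Without WT 1 and WT 3 Atcay (-0.79) and Gdap2 (0.36) did not pass in mdx, while Arhgap1 did in both (0.66 and 0.64). Ttc9c, the only tested relative of Ttc9, did not pass at 0.37 and 0.44, and its sign turned to -0.26 and -0.19 without WT 1 and WT 3. Of 6 fatty acid binding proteins 1 rose and 1 fell in each mutant: Fabp5, the form of skin and macrophages, rose by 1.16 (edgeR adjusted p = 0.000355) and 0.94 (edgeR adjusted p = 0.00156), and Fabp3 fell as given above. The fall of Fabp3 is not independent of the choice of Fabp3-ps1. Fabp5 stood at 1.11 and 0.88 without WT 1 and WT 3, where 1 of the 6 rose and 2 fell in each. Between DMD-Null and mdx edgeR called none of the 77 family genes, 2 of which (Dusp10 and Dupd1, chosen after their values were seen) had an unadjusted p under 0.05, and DESeq2 called none of them.

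Genes beside the 10 on the chromosome were read to see whether a whole region differed, which neighbours as far as 5679.1 kb away cannot show. Of the 20 nearest tested genes, 1 on each side, 5 rose and 5 fell in mdx and 5 rose and 4 fell in DMD-Null, with medians of 0.14 and 0.01. Over all tested genes the shares were 15.0% and 20.1% in mdx, and 12.9% and 15.6% in DMD-Null. Without WT 1 and WT 3, 6 rose and 2 fell in mdx and 6 rose and 3 fell in DMD-Null. Of all 11376 genes, 1408 rose and 1241 fell in mdx then, and 1367 rose and 1119 fell in DMD-Null. Between DMD-Null and mdx edgeR and DESeq2 called none of the 20, and 0 had an unadjusted p under 0.05. Next to Ppp1r1a, which was lower in the mutants, lies Nckap1l at 31.5 kb on the opposite strand, a gene of the actin machinery of blood cells. It rose from 3.97 ± 0.636 CPM in WT to 21.4 ± 1.76 CPM with mdx and 19.9 ± 6.02 CPM with DMD-Null (SD, n = 4), by 2.43 (edgeR adjusted p = 5.03e-05) and 2.32 (edgeR adjusted p = 6.86e-05), and by as much without WT 1 and WT 3 (2.43 and 2.32). C1qtnf3 was higher in the mutants, but Amacr, 1.6 kb away on the same strand and a gene of branched fatty acid breakdown, did not pass, with -0.15 in mdx (edgeR adjusted p = 0.417) and -0.06 in DMD-Null (edgeR adjusted p = 0.749), or -0.34 and -0.25 without WT 1 and WT 3. On the other side of C1qtnf3, at 238.2 kb, Rai14 rose by 1.51 and 1.38, or by 1.08 and 0.95 without these libraries.

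Kcnk5, a potassium channel gene 33.7 kb from Gm48395, rose by 1.73 (SE 0.36, edgeR adjusted p = 0.0049) and 1.42 (SE 0.36, edgeR adjusted p = 0.0138), and by 2.55 and 2.23 without WT 1 and WT 3. The nearest gene to 1700001O22Rik, Ntmt1 at 4.2 kb, fell by 1.09 and 1.03, but not without WT 1 and WT 3 (-0.34 and -0.28). The same held for 2900076A07Rik beside BC048679 (-1.74 and -1.63, then -0.65 and -0.54). It also held for Nudc-ps1 at 1802.5 kb from Dusp26 (-1.10 and -1.19, then -0.30 and -0.39) and for Nudt13 beside Gm48395, which fell in mdx (-0.52, then -0.30). Hsp90b1, an endoplasmic reticulum chaperone gene next to Fabp3-ps1, rose by 0.80 and 0.83, or by 0.46 and 0.48 without WT 1 and WT 3, and its call in DMD-Null ended in a fit of the 8 libraries of WT and DMD-Null. Pcdh7, 5679.1 kb from 0610040J01Rik, rose by 1.36 and 1.15, or by 1.37 and 1.16 without WT 1 and WT 3. Pcnx beside Ttc9 fell by 0.49 and 0.53, or by 0.69 and 0.74 without them, but not under library totals alone, among other settings. The other 10 neighbours (Gm9108, Cpeb1os1, Ier5l, Rell1, Rnf122, Vps13a, Rfk, Med6, Amacr and Nt5dc3) did not pass in either mutant. Of these, 3 did without WT 1 and WT 3. Ier5l, beside 1700001O22Rik, turned from -0.23 and -0.17 to 1.0 (edgeR adjusted p = 0.0296) and 1.06 (edgeR adjusted p = 0.0241). Nt5dc3, beside Fabp3-ps1, went from -0.28 and -0.23 to -0.55 (edgeR adjusted p = 0.00367) and -0.51 (edgeR adjusted p = 0.00578), and Gm9108, beside Ppp1r1a, from -0.54 to -1.04 in DMD-Null (edgeR adjusted p = 0.0157).

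**Figure D4:**
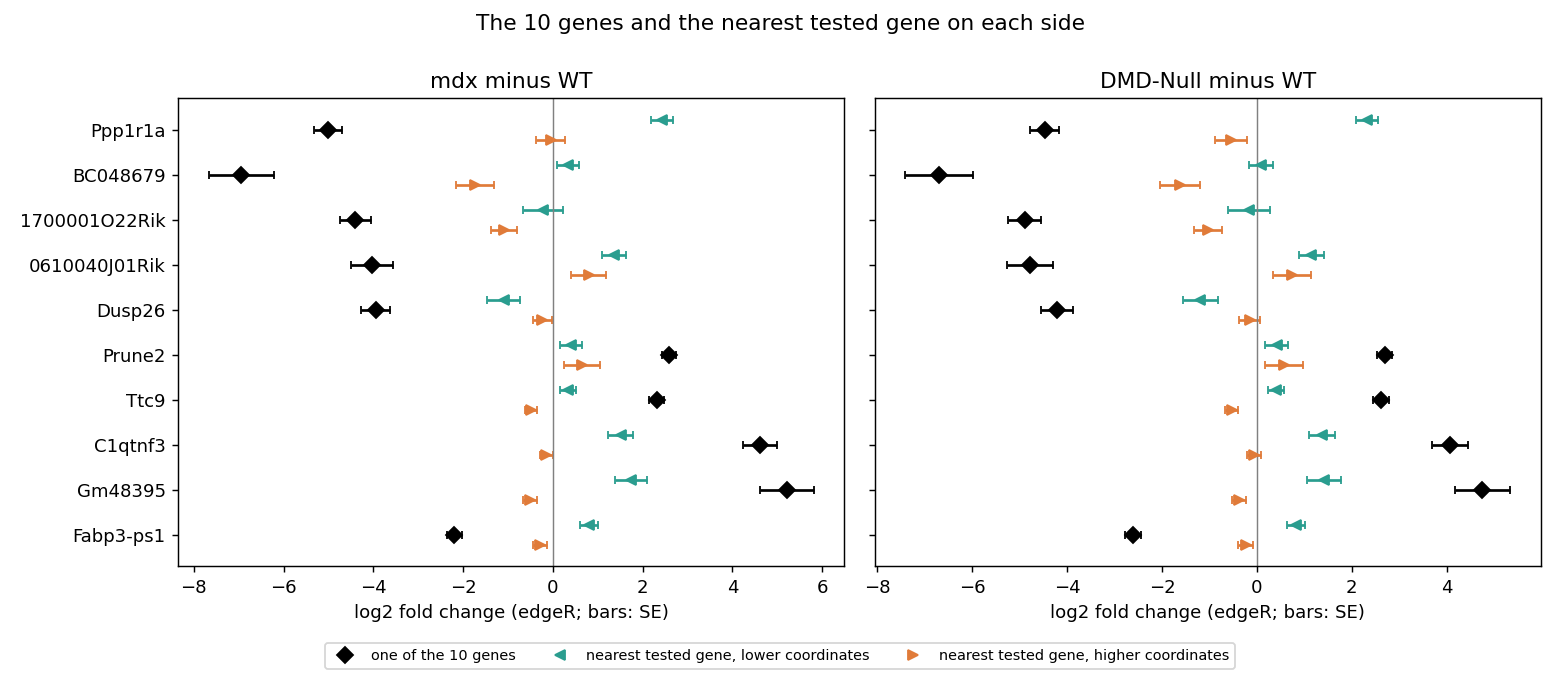
Log2 fold change in mdx (left) and DMD-Null (right) against WT for each of the 10 genes (diamonds) and for the nearest tested gene on each side (triangles), with bars of 1 SE. The neighbours lie nearer to 0 than the gene between them, which a choice of genes for large changes favours. The rise of Nckap1l, 2.43 in mdx, stands opposite to Ppp1r1a at -5.00.

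For each of the 10, the tested genes outside the 10 with the most similar pattern over the 12 libraries were sought by the root-mean-square difference of centred log2 CPM. The genes compared share these libraries, so the measure is a description. Esrrb, a nuclear receptor, was nearest to Ppp1r1a (0.474) and to Dusp26 (0.494), and Efcab6, an EF-hand protein gene, to 1700001O22Rik (0.508) and BC048679 (1.11). Among the 10 themselves, Ppp1r1a (0.959) and 1700001O22Rik (1.10) were nearer to BC048679 than Efcab6. Esrrb averaged 19.8 ± 7.09 CPM in WT libraries, 1.10 ± 0.403 CPM with mdx and 1.12 ± 0.432 CPM with DMD-Null, and Efcab6 averaged 20.2 ± 6.57, 0.939 ± 0.274 and 0.683 ± 0.271 (SD, n = 4). Adig, an adipocyte gene, was nearest to 0610040J01Rik (0.673), and Ces1d, a carboxylesterase gene, came after Esrrb for Dusp26 (0.495).

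E2f2, a transcription factor of the cell cycle, was nearest to both Prune2 (0.277) and Ttc9 (0.214). The next genes outside the 10 were the imprinted gene Peg3 for Prune2 (0.333) and the tight junction gene Marveld2 for Ttc9 (0.260). Prune2 and Ttc9 were the most alike of the 10, at 0.277, so that Ttc9 was nearer to Prune2 than Peg3. Myog, the transcription factor of differentiating muscle cells, was nearest to C1qtnf3 (0.275) and stood at 1.88 ± 0.504, 34.4 ± 7.33 and 26.9 ± 8.69 CPM in WT, mdx and DMD-Null (SD, n = 4). R3hdml, with no count in WT, followed at 0.483. For Gm48395 the chemokine gene Ccl22 was nearest at 0.801, and Chrng, the fetal subunit of the acetylcholine receptor, followed at 0.824. Only BC048679 was farther from its nearest gene outside the 10 (Efcab6, 1.11). The WT values of Gm48395 rest on 0 to 29 counts per library. After Fabp3, the potassium channel gene Kcng4 was nearest to Fabp3-ps1 (0.267).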

How the data were processed

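The authors deposited 1 table of 30239 genes with counts of reads for each gene in each library, as whole numbers and not normalized, and FPKM values, which per the file headers are given for the same genes and 12 libraries. The submitters' processing notes name cutadapt 1.10, FastQC 0.10.1, HISAT2 2.0 and StringTie 1.3.4 and the build GRCm39. Of 30155 genes shared with the GRCm38 annotation 99.7% have its start or end, so coordinates are read as GRCm38. Libraries were made with a stranded kit, per the labels' protocols. The counting tool, and whether counting used strand, are not given in the sources used here, so overlapping and near-identical genes are uncertain.

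The 10 genes, the gene lists and the tests were chosen with earlier results of these data known. Genes with FPKM of at least 1 in at least 4 libraries were tested with edgeR's quasi-likelihood test on the deposited counts (edgeR 4.0.16, R 4.3.3, TMM factors, all 12 libraries in 1 model). P-values had Benjamini-Hochberg adjustment over all genes and a threshold of 0.05. Each SE is the absolute log2 fold change divided by the square root of the F statistic of that test. Before use the fit was run on simulated counts with the same spread in every gene and changes put into DMD-Null alone. The simulation lacked the uneven WT libraries of these data, so it cannot vouch for the fit here. Single genes were compared between DMD-Null and mdx by exact permutation of log2 CPM (prior count 2, scipy 1.17.1). Named besides the 10 are, per family, the 3 largest changes past the threshold in each mutant and the most abundant gene, the nearest tested gene on each side, the 2 genes with the most similar pattern, and overlapping genes. Single markers, and genes called between the mutants, are named only beside a result they bear on. Near copies were sought with blastn 2.17.0 in GENCODE transcripts of GRCm38.

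The labels do not tie replicates to separate animals, and p-values therefore reflect the spread among these samples, which may be technical. Replicate numbers were not taken to pair the samples. Depth was 60693078 to 68054627 counts per library. A floor of 3 counts covers counting error only. Alternatives were median-of-ratios scaling, library totals alone, no filter, a filter on mean FPKM of 5 or more, DESeq2 1.42.0, limma 3.58.1 on log2(FPKM + 1) or with a pseudocount of 0.1, the 8 libraries compared, a replicate block, each library left out, and WT 1 and WT 3 left out.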

Additional observations from a re-analysis of the deposited data

Results flagged for a closer look

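Over the 10 genes and 3 genotypes, 30 groups of 4 libraries were screened for a library whose gap to its nearest neighbour takes up most of the range of the group, a screen that chance alone passes in about 5% of groups. It was met in 2. BC048679 stood at 39.3 CPM in WT 3, against 7.76 to 11.0 in the other WT libraries, and WT 3 is one of the libraries that stood apart from the rest over all genes. C1qtnf3 stood at 1.13 CPM in WT 2, or 65 counts, against 0.484 to 0.582 CPM in the other WT libraries, and every mutant library lay above it. No explanation was tested for either.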

How the results depend on the processing

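The 10 genes kept their direction against WT in every setting that tested them, and none passed between DMD-Null and mdx in any. Under a filter on mean FPKM of 5 or more, Prune2, C1qtnf3, 1700001O22Rik and 0610040J01Rik were not tested. Sizes were smallest on log2(FPKM + 1), where BC048679 was -3.70 and 0610040J01Rik -2.16 in mdx, since the pseudocount shrinks low values. The genes called numbered 4001 in mdx, 3241 in DMD-Null and 2 between the mutants. These became 1701, 1483 and 1 under that filter, and 2268, 1398 and 4 in the 8 libraries compared. Deviations from the group mean correlated at -0.587 to 0.217 between libraries with the same replicate number, which were not taken as pairs. The replicate block gave 2377, 1869 and 0. DESeq2 called 6 between the mutants, limma 5527 (pseudocount 1) and 5430 (0.1) in DMD-Null, and 2649 genes were called in mdx without WT 1 and WT 3. With each library left out the ranges were 2300 (without mdx 4) to 6874 (without WT 2), 1707 (without DMD-Null 2) to 6404 (without WT 2), and 1 to 2.

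Family genes called were 36 in mdx and 27 in DMD-Null: 18 and 15 under that filter, 22 and 15 in 8 libraries, 21 in mdx with the replicate block, 41 in DMD-Null with limma (pseudocount 1), and 21 (without mdx 1) to 53 (without WT 2) and 15 (without DMD-Null 3) to 46 (without WT 2) with each library left out. Neighbours called were 10 and 9: 3 and 3 under that filter, 4 in DMD-Null in 8 libraries, and 7 to 13 and 5 to 13 with each library left out. Library totals alone moved the median of all genes to 0.42 in mdx and 0.44 in DMD-Null. Calls were then 3350 higher and 707 lower in mdx, against 1709 and 2292, and 3360 and 574 in DMD-Null, against 1471 and 1770. With limma (pseudocount 1) they were 5049 and 672, and 4962 and 565. The cause of these shifts was not tested. Low counts limit BC048679, with 4 to 19 counts per mutant library, and Gm48395, with 0 to 29 counts per WT library.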
